A study of Mus musculus with 12 samples.

Results

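The genes described here are 40 genes of the cell division cycle, 18 that act in DNA replication and 22 that act in mitosis, chosen by name for their roles in S phase and M phase. All 40 were found among the 37991 genes of the count table, and all 40 passed the filter on low counts that left 16708 genes for testing. RNA was sequenced from primordial germ cells, the embryonic precursors of eggs and sperm, which had been sorted separately from 12 mouse embryos at E13.5 (days of embryonic development). Every embryo had the C57BL/6 background. The 4 groups were control females (Ctrl, 3 embryos), females with conditional knockout of Ezh2 (CKO, 2 embryos), control males (4 embryos) and CKO males (3 embryos). Ezh2 is the enzyme of Polycomb repressive complex 2 that methylates histone H3 to give H3K27me3. Neither the Cre line, the alleles carried by controls, the litters nor the part of Ezh2 that was removed is given in the labels, so how many germ cells of a CKO embryo had lost the gene cannot be read from them.

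Replication begins when CDC6 and CDT1 load the ring-shaped MCM helicase onto origins in G1, and CDC45 and the GINS complex then turn it into an active helicase as S phase starts. Many of these genes are switched on together by E2F factors, whereas genes of G2 and mitosis are held back in quiescent cells by the DREAM complex and activated late in the cycle by MuvB with B-MYB and FOXM1, through promoter elements called CHR that often lie near CCAAT boxes. At E13.5 female germ cells are leaving mitotic proliferation for meiosis, which opens with a round of premeiotic DNA replication, and male germ cells are leaving the mitotic cycle for a long arrest in G1. RNA from sorted cells is an average over cells, so fewer cells in a phase and less RNA in each of those cells cannot be told apart.

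Levels are given in CPM, counts scaled to library sizes that were adjusted with TMM factors, and 1 CPM stood for 24.2 to 34.2 counts. Total counts ran from 26180685 to 35299206 per library. Ezh2 itself had 154 ± 10.9 CPM (SD, n = 3) in control females and 95.6 ± 15.7 (n = 2) in CKO females, which is -0.68 ± 0.15 on the log2 scale (SE; adjusted p = 0.02 in edgeR). In males it had 122 ± 19.9 CPM (n = 4) in controls and 84.4 ± 1.79 (n = 3) in CKO embryos, a log2 fold change of -0.53 ± 0.13 that missed the threshold of 0.05 (edgeR adjusted p = 0.0527). The sum of 9 germ cell markers, most of it Dazl and Ddx4, lay between 5920 and 6553 CPM in all libraries. It was 5938.5 and 5957 CPM in CKO females, below the 6328 to 6553 CPM of control females. Of the 9, 3 (33.3%) were called lower in CKO than in control females, beside 4.16% of all tested genes (median log2 fold change -0.51). In control females 2 (22.2%) were higher and 3 (33.3%) lower than in control males, beside 20.1% and 19.4% of all tested genes. All 7 Sertoli cell markers passed the filter and summed to 11.3 to 14.4 CPM in the 5 female libraries, where Amh and Cst9 were at 0, and to 16.6 to 50.2 CPM in the 7 male libraries. Nearly all of the female sum was Aard, with 309 to 435 counts in females and 206 to 681 in males. Sox9, Dhh and Ptgds had at most 8 counts in any female and at least 18 in every male. The median log2 fold change of the 7 between control females and control males was -5.05. Fgf9 went the other way in CKO embryos, with 61 and 63 counts in females and 18, 8 and 8 in males. Of 8 red blood cell markers 6 passed, and their sum was 16.4 CPM in female CKO 1 and 20.4 CPM in male CKO 1 against at most 2.06 CPM elsewhere.

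Levels were also divided by kilobases of exon, counted over all annotated transcripts of a gene. The order of genes on this scale therefore depends partly on the annotation. The mitosis gene Ccnb2 stood highest at 301 CPM per kb as the mean of the 4 groups. The helicase subunit gene Mcm6 followed at 228 and Ccnb1 at 214. Gins2, a subunit of the GINS complex, and Cdc25c, the phosphatase that removes inhibitory phosphates from CDK1, were lowest at 3.72 and 5.79 CPM per kb. The median replication gene had 49.2, 48.7, 42.3 and 46.3 CPM per kb in control females, CKO females, control males and CKO males. The median mitosis gene had 45.1, 41.2, 50.4 and 48.4 CPM per kb in the same order. The 4 medians of each phase thus lay close together. The ratio of the highest to the lowest group mean was smallest for Ttk, a spindle checkpoint kinase, at 1.06, and largest for Aurkb at 2.37 and Bub1b at 2.16.

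**Figure D1:**
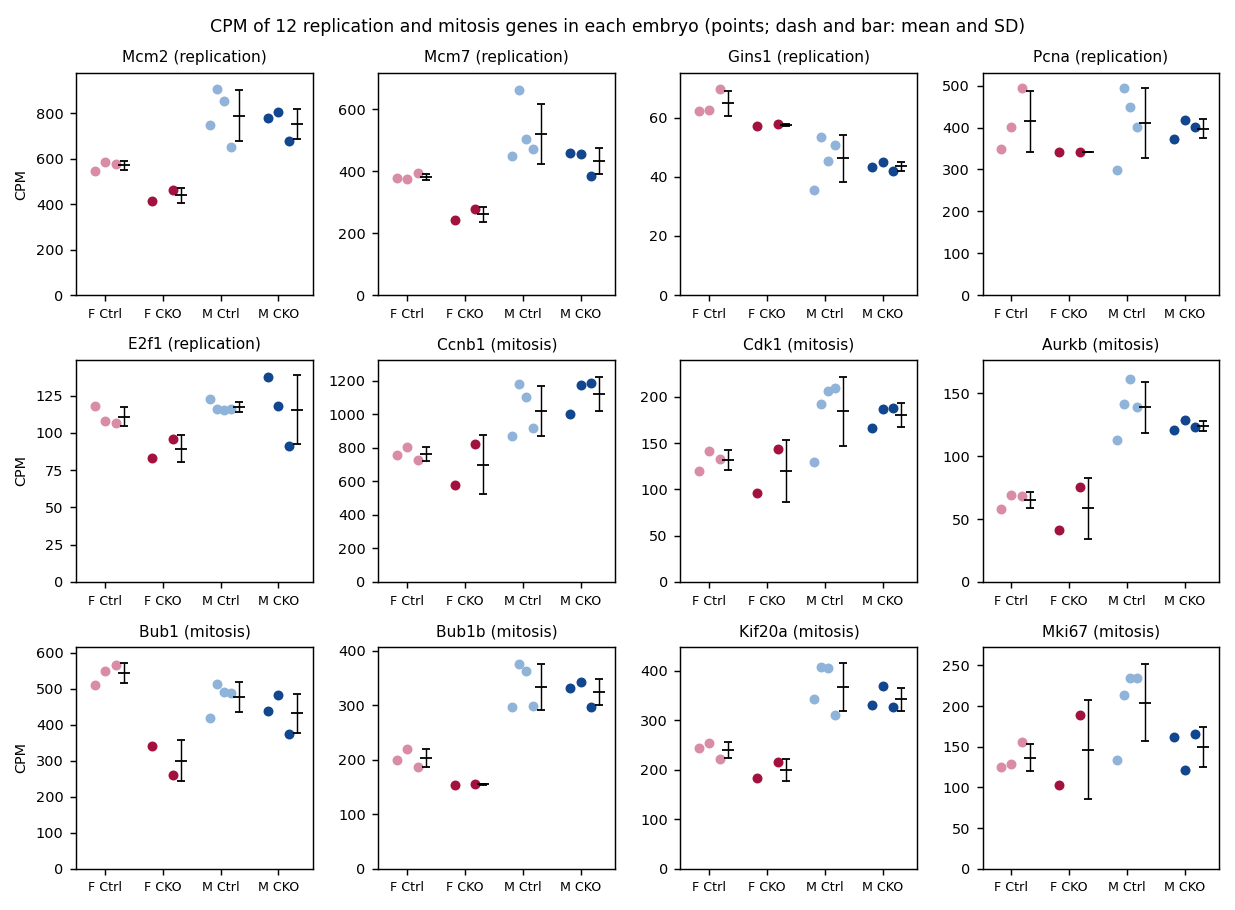
CPM (vertical axes, linear, from 0) of 12 of the genes in each embryo (points), by group, with the group mean (dash) and SD (bar) beside the points; F is female and M male. Aurkb, Bub1b and Kif20a lie lower in all 5 females than in all 7 males, and Bub1 lies lowest in the 2 CKO females (342 and 259.6 CPM).

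The first comparison set control females against control males, germ cells on the way into meiosis against germ cells on the way into arrest. Mitosis genes were lower in females and replication genes were mixed. Of the 22 mitosis genes 11 were lower in females and 1 was higher (edgeR quasi-likelihood test, adjusted p under 0.05), whereas 39.5% of all tested genes were called, 19.4% lower and 20.1% higher. Of the 18 replication genes 2 were lower and 1 was higher. The median log2 fold change was -0.40 over the mitosis genes and 0.05 over the replication genes, beside 0.00 over all tested genes. In 9 of the 40 genes all females lay below all males and in 2 above, patterns that 21.1% and 22.3% of all tested genes had. The sum of Sertoli cell markers, given above, also differed between the sexes, and its part in these results was not tested.

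Among the mitotic kinases the largest difference was in Aurkb, the catalytic subunit of the chromosomal passenger complex, which corrects the attachment of chromosomes to the spindle. Its level was 58.3, 69.3 and 68.1 CPM in the 3 control females and 113, 141, 162 and 139 CPM in the 4 control males. Every male was above every female, and the log2 fold change was -1.09 ± 0.17 (SE, edgeR adjusted p = 0.000284). Birc5, which encodes survivin of the same complex, was lower too (log2 fold change -0.59 ± 0.14, edgeR adjusted p = 0.00485), as was Aurka, the kinase of spindle poles (-0.64 ± 0.19, edgeR adjusted p = 0.0184). Plk1, which drives mitotic entry and spindle assembly, gave -0.45 ± 0.19 and was not called (edgeR adjusted p = 0.0791), but was called without male Ctrl 1 (0.0272) and in limma-voom (0.0163).

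The spindle checkpoint genes did not move as a block. Bub1b, which encodes the BUBR1 component of the inhibitor that holds back the anaphase-promoting complex, had 199.9, 219.8 and 187 CPM in control females and 296, 376, 362 and 299 CPM in control males. The groups did not overlap, and its log2 fold change of -0.72 ± 0.10 carried the smallest adjusted p of the 40 genes in this comparison (edgeR, 0.000136). Bub1, a kinase of the same checkpoint that also protects cohesion at centromeres, had 512, 550.1 and 566 CPM in control females and 418, 513, 491 and 489 CPM in control males. These ranges overlapped at 512 to 513 CPM, and its log2 fold change of 0.18 ± 0.11 was not called (edgeR adjusted p = 0.219). Mad2l1 (-0.21) and Ttk (0.09) were not called either.

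Kif20a, a kinesin that carries the passenger complex to the spindle midzone for cytokinesis, had 243, 254 and 222 CPM in control females and 342, 407, 405 and 309.8 CPM in control males. No library crossed over, with a log2 fold change of -0.61 ± 0.11 (edgeR adjusted p = 0.000683). Cenpf, a protein of the outer kinetochore, was also lower (-0.65 ± 0.16, edgeR adjusted p = 0.0059), while the other 4 genes of this group, the spindle proteins Kif11, Cenpe, Nusap1 and Tpx2, were not called.

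The mitotic cyclins split. Ccnb1, the main cyclin B partner of CDK1, had 758, 806 and 726 CPM in control females and 870.2, 1182, 1103 and 921 CPM in control males. All males were above all females, and the log2 fold change was -0.42 ± 0.13 (edgeR adjusted p = 0.0235). Ccnb2, which encodes the other major B-type cyclin, went the opposite way (0.31 ± 0.08, edgeR adjusted p = 0.00736), and Ccna2 and Cdc20 were not called.

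Cdk1, the kinase that these cyclins activate, had 119.6, 141 and 133 CPM in control females and 129.5, 192, 206 and 209 CPM in control males. Male Ctrl 1 lay within the female range and the other 3 males above it (log2 fold change -0.49 ± 0.17, edgeR adjusted p = 0.0313). Cdc25c was lower in females as well (-0.76 ± 0.17, edgeR adjusted p = 0.0032). Mki67, which coats mitotic chromosomes and is used as a marker of cycling cells, had 125, 129 and 156 CPM in control females and 134, 213, 234 and 234 CPM in control males. Its ranges overlapped through male Ctrl 1 (-0.58 ± 0.22, edgeR adjusted p = 0.0489), and Top2a, the topoisomerase that untangles sister chromatids, was also called (-0.38, edgeR adjusted p = 0.0304).

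Within the replication genes, 2 subunits of the helicase ring were lower in females and the other 4 were not called. Mcm2 had 547, 584 and 578 CPM in control females and 746, 904, 852 and 652 CPM in control males. Mcm7 had 378, 376 and 394 CPM in control females and 448, 661, 503 and 470.5 CPM in control males. For both genes every male was above every female, with log2 fold changes of -0.47 ± 0.11 (edgeR adjusted p = 0.00405) for Mcm2 and -0.44 ± 0.12 (edgeR adjusted p = 0.0117) for Mcm7. Log2 fold changes of Mcm3, Mcm4, Mcm5 and Mcm6 lay between 0.04 and 0.16, with adjusted p from 0.248 to 0.825 in edgeR.

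Gins1 was the 1 replication gene called higher in females with all libraries in the fit. It had 62.3, 62.8 and 69.8 CPM in control females and 35.5, 53.3, 45.5 and 50.7 CPM in control males. The groups did not overlap (log2 fold change 0.49 ± 0.13, edgeR adjusted p = 0.00701). Pcna, the clamp that tethers polymerases to DNA, had 349, 402 and 494 CPM in control females and 299.7, 495, 449 and 400.2 CPM in control males. The ranges coincided almost fully, with a log2 fold change of 0.01 ± 0.15 (edgeR adjusted p = 0.952). E2f1, a transcription factor of the G1 to S transition, had 118, 108 and 107 CPM in control females and 123, 116, 115 and 116 CPM in control males. Its log2 fold change of -0.08 ± 0.12 was not called (edgeR adjusted p = 0.612). The genes of cyclin E and of ribonucleotide reductase had positive values that did not pass, 0.50 for Ccne1, 0.54 for Ccne2 and 0.55 for Rrm2, and all 3 varied widely among control males, Rrm2 from 177 to 545 CPM. Without male Ctrl 2 these 3 genes and Cdc6 were called higher in females, with log2 fold changes of 0.80 for Ccne1 (edgeR adjusted p = 0.000654), 0.89 for Rrm2 (0.00482), 0.71 for Ccne2 (0.0183) and 0.51 for Cdc6 (0.0122). In limma-voom with all libraries Ccne1, Ccne2 and Rrm2 were called as well (adjusted p 0.00731, 0.0195 and 0.0363).

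Of the 15 calls in this comparison, 10 stayed called when any 1 library of the comparison was left out and under every other setting tried: Mcm2, Mcm7, Gins1, Ccnb2, Cdc25c, Aurkb, Birc5, Bub1b, Kif20a and Cenpf. The calls of Ccnb1, Cdk1, Aurka, Top2a and Mki67 were each lost without female Ctrl 1 (edgeR adjusted p 0.0669, 0.119, 0.0707, 0.138 and 0.151) and without female Ctrl 3 (0.0868, 0.076, 0.076, 0.0567 and 0.061), and all but Aurka also without male Ctrl 3. Some were lost without further libraries as well: Ccnb1 without male Ctrl 2, Cdk1 and Top2a without male Ctrl 4, and Mki67 without any 1 library other than male Ctrl 1. With no TMM factors the median of all genes went from 0.00 to 0.10, and this turned the split of calls from 2 higher and 13 lower into 6 higher and 9 lower, with Mcm6, Bub1, Ccne1 and Ccne2 added as higher. Without male Ctrl 2 the split was 6 higher and 11 lower.

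**Figure D2:**
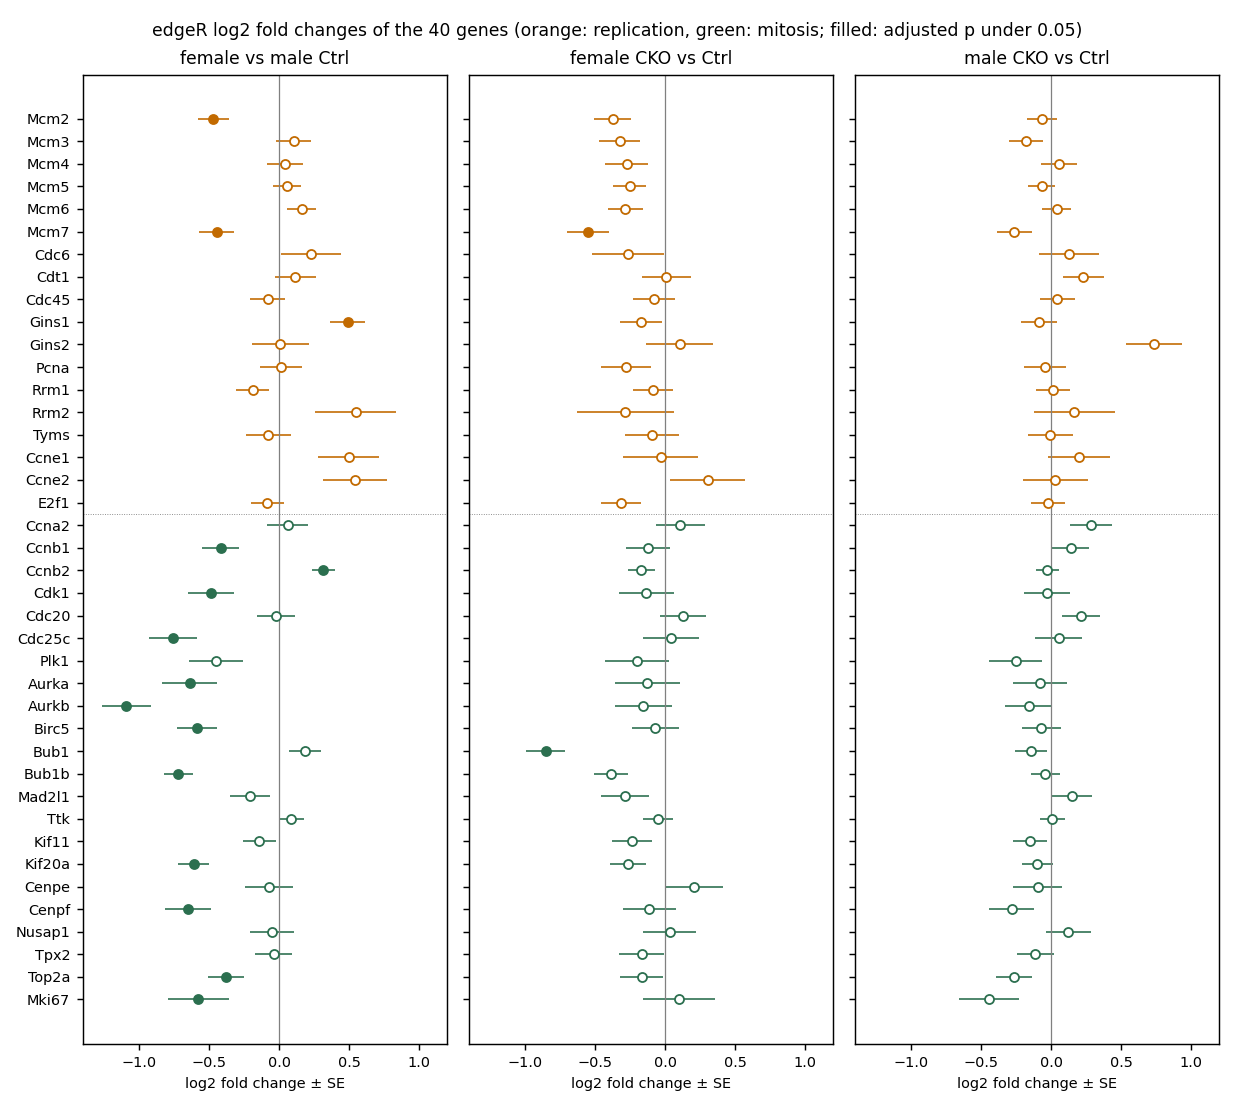
Log2 fold change (horizontal axes) with its SE (bar) for each of the 40 genes (vertical axis) in 3 comparisons; orange marks replication genes, green mitosis genes, and filled points an edgeR adjusted p under 0.05. In control females against control males most green points lie left of 0 (18 of 22), and in the CKO comparisons 2 points are filled in females and none in males.

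Since the phases differed, the promoters were read for the motifs named above. RefSeq promoters on GRCm38.p6, from 250 bases before to 50 bases after the start of transcription, were held for 31 of the 40 genes, 14 of replication and 17 of mitosis. No promoter was read for Mcm4, Gins1, Gins2, Ccne2, Ccna2, Cdc25c, Aurkb, Kif20a and Tpx2. Motifs were searched on both strands, and a match at any start of a gene counted. An E2F motif was TTGGCGC or one of its variants, namely TTGCCGC or else TTCGCGC or else TTCCCGC. A CHR was the run TTTGAA, and a CCAAT box the run of its name. The 4 promoters below are shown because Mcm7 and Mcm2 were the replication genes lower in females, Cdk1 holds all 3 kinds of motif, and Bub1 gave the largest difference between CKO and control females. Capitals mark the matches on either strand, each sequence reads 5′ to 3′ along the gene, and all 4 genes are on the minus strand: Mcm7 at chr5:138171834-138172133 (1 of 2 starts in the table), Mcm2 at chr6:88898731-88899030, Cdk1 at chr10:69352863-69353162 and Bub1 at chr2:127831810-127832109.
Mcm7: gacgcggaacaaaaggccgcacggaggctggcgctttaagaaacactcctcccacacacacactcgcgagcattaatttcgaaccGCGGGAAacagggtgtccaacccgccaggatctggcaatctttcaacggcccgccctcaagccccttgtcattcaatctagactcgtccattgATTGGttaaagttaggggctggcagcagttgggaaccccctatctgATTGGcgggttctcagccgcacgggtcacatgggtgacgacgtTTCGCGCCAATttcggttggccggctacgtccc
Mcm2: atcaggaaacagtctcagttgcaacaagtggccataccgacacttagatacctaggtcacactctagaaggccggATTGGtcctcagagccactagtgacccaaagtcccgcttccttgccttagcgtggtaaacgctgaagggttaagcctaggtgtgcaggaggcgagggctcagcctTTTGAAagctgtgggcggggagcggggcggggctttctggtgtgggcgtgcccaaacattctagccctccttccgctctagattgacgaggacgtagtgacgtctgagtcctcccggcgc
Cdk1: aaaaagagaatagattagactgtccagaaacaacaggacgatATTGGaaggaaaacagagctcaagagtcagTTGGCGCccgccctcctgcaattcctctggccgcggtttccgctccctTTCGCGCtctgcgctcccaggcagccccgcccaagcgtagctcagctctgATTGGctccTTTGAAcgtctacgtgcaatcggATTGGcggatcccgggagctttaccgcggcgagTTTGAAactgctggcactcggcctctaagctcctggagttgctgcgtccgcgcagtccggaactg
Bub1: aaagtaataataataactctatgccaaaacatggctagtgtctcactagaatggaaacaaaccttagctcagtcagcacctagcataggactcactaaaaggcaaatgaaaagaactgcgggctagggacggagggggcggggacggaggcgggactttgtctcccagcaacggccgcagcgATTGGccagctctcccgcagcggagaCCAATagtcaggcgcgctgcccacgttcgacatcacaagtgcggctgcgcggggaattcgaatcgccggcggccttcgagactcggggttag

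The Mcm7 stretch held E2F motifs at -165 and, overlapping each other and a CCAAT box, at 17 and 20 bases from the start, with further CCAAT boxes at -72 and -26. Mcm2 had no E2F motif of these letters in this window, and had a CHR at -70 and a CCAAT box at -175. Cdk1 had E2F motifs at -178 and -130, CHR motifs at -71 and -15, and CCAAT boxes at -208, -80 and -48. Bub1 had CCAAT boxes at -68 and -42 and no match to the other motifs.

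Across the promoters that were read, the motifs followed the phase. An E2F motif was in 8 of 14 replication promoters (57.1%: Cdc6, Cdt1, Mcm3, Mcm5, Mcm6, Mcm7, Rrm1 and Rrm2) and in 3 of 17 mitosis promoters (17.6%), beside 10.9% of all 27025 genes with a promoter in the table and 18.7% of the tested genes. A CHR was in 11 of 17 mitosis promoters (64.7%) and in 2 of 14 replication promoters (14.3%), beside 20.2% of all and 14.4% of tested genes. All 11 mitosis promoters with a CHR also had a CCAAT box, a pair found in 8.97% of all promoters. Alone, CCAAT was in 9 of 14 replication and 14 of 17 mitosis promoters, beside 41.1% of all. E2F and CCAAT matches overlapped in Mcm7 and Ccnb1. A CHR was in 6 of the 8 promoters read for mitosis genes that were lower in control females, all but Birc5 and Ccnb1, and in 5 of the 9 read for the other mitosis genes. These are matches of letters in a window of 300 bases and were not tested.

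The same comparison was made among CKO embryos, 2 females against 3 males. Again mitosis genes were lower in females: 10 of 22 were called lower and none higher, beside 38.4% of all tested genes called, 19% lower and 19.4% higher. Replication genes gave 2 lower and 2 higher. Median log2 fold changes were -0.44 over the mitosis genes, -0.16 over the replication genes and 0.03 over all genes. In 20 of the 40 genes both females lay below all 3 males and in 3 above, beside 30.8% and 33.4% of all tested genes.

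Bub1b had 154 and 156 CPM in CKO females and 332, 342 and 297 CPM in CKO males. The 2 females had nearly the same level and lay far under the males (log2 fold change -1.07 ± 0.13, edgeR adjusted p = 4.26e-05). Aurkb had 41.5 and 75.5 CPM in CKO females and 121, 129 and 123 CPM in CKO males (-1.09 ± 0.21, edgeR adjusted p = 0.00127). Kif20a had 183 and 215 CPM in CKO females and 331, 368 and 325 CPM in CKO males (-0.78 ± 0.13, edgeR adjusted p = 0.000538). In none of the 3 did the sexes overlap, although the 2 CKO females stood far apart in Aurkb.

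Ccnb1 had 576 and 824 CPM in CKO females and 1003, 1175 and 1189 CPM in CKO males, and was called (-0.68 ± 0.16, edgeR adjusted p = 0.00476). Cdk1 had 95.8 and 144 CPM in CKO females and 166, 187 and 188 CPM in CKO males (-0.59 ± 0.20, edgeR adjusted p = 0.0311). The females were lower in both genes without overlap. Bub1 (-0.52, edgeR adjusted p = 0.00923) and Mad2l1, which encodes the checkpoint protein MAD2 (-0.64, edgeR adjusted p = 0.00999), were called here and not among controls. Mki67, called among controls, had 103 and 189 CPM in CKO females and 162, 122 and 165 CPM in CKO males, and these ranges overlapped (-0.03 ± 0.26, edgeR adjusted p = 0.931). For none of these genes was the change of the sex difference with genotype itself called, as the interaction test shows.

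Of the replication genes, Mcm2 had 415 and 462 CPM in CKO females and 778, 803 and 677 CPM in CKO males (-0.78 ± 0.13, edgeR adjusted p = 0.00054). Mcm7 had 244 and 278 CPM in CKO females and 459, 457 and 385 CPM in CKO males (-0.73 ± 0.15, edgeR adjusted p = 0.00191). Both females were below all 3 males in both genes. Gins1 (0.40, edgeR adjusted p = 0.0474) and Ccne2, a cyclin E gene (0.81, edgeR adjusted p = 0.0292), were higher in females.

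Of these 14 calls 5, Mcm2, Mcm7, Aurkb, Bub1b and Kif20a, held whichever library was left out and under every other setting tried. Calls became fewer without female CKO 1, both among the 40 genes and over all tested genes, in a fit that kept 1 CKO female. The median of the mitosis genes was then -0.19. The calls of Ccne2, Gins1, Ccnb1, Cdk1, Cdc25c, Aurka and Birc5 were lost in that fit. Those of Bub1, Mad2l1, Gins1 and Birc5 were lost without female CKO 2. The call of Gins1 was lost without any 1 of the 5 libraries, that of Ccne2 also without any 1 male, those of Cdk1 and Aurka without male CKO 2 or male CKO 3, and that of Birc5 without male CKO 3. With no TMM factors the median of all genes was 0.21, and the calls were 3 higher and 9 lower. Calls gained elsewhere included Gins2, lower in females in limma-voom (adjusted p = 0.0307) and DESeq2 (0.0375), E2f1, lower in DESeq2 (0.0464), and Cenpf, lower in limma-voom (0.0292). E2f1 and Cenpf were also gained as lower with the length or the GC trend removed, among other settings. Ccnb2 was gained as higher in females with library size only (edgeR adjusted p = 0.00577) and with the filter of 5 CPM (0.0461).

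Knockout against control within females gave few calls in these genes. Of the 40, 2 were lower and none was higher (edgeR), while 7.17% of all tested genes were called, 4.16% lower and 3.01% higher, so the share of the 40 was near that of the genome. The median log2 fold change was -0.26 over the replication genes, 15 of 18 of which were negative, and -0.13 over the mitosis genes, beside 0.00 over all genes. This comparison shares its control females with the first one, and shares its CKO females with the comparison of CKO embryos between the sexes. The 2 genes called, Bub1 and Mcm7, were already known from an earlier analysis of these data to be called.

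Bub1 had the larger of the 2 changes. Its level was 512, 550.1 and 566 CPM in control females and 342 and 259.6 CPM in CKO females. Both CKO embryos lay well below all 3 controls, a fall of 1.81-fold (log2 fold change -0.85 ± 0.14, edgeR adjusted p = 0.00562). Leaving out female CKO 2 ended the call (edgeR adjusted p = 0.0567), and it stayed in the other 4 fits that left out 1 library. The other checkpoint genes gave -0.39 for Bub1b (edgeR adjusted p = 0.0757), whose CKO values of 154 and 156 CPM lay below the 3 controls, -0.29 for Mad2l1 and -0.05 for Ttk, none of them called in edgeR. Bub1b was called in limma-voom (-0.42, adjusted p = 0.0413), which called 2068 of all genes against 1198 in edgeR.

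Mcm7 had 378, 376 and 394 CPM in control females and 244 and 278 CPM in CKO females. The groups were well apart, by 1.47-fold (log2 fold change -0.55 ± 0.15, edgeR adjusted p = 0.0413), but the adjusted p lay between 0.0791 and 0.24 whenever any 1 library was left out. Mcm2 had 547, 584 and 578 CPM in control females and 415 and 462 CPM in CKO females, without overlap, and was not called (-0.38 ± 0.13, edgeR adjusted p = 0.0991). The other helicase subunits, Mcm3, Mcm4, Mcm5 and Mcm6, gave log2 fold changes from -0.33 to -0.25, none called.

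In 10 of the 18 replication genes both CKO females lay below all control females, and in none above, whereas 22.3% of all tested genes had such a pattern downward and 22.2% upward. The 10 were the 6 helicase subunits, Cdc6, Gins1, Pcna and E2f1. Among the mitosis genes there were 5, Bub1, Bub1b, Mad2l1, Kif11 and Kif20a. Pcna had 349, 402 and 494 CPM in control females and 341 and 342 CPM in CKO females (-0.28 ± 0.18, edgeR adjusted p = 0.378). E2f1 had 118, 108 and 107 CPM in control females and 82.9 and 95.7 CPM in CKO females (-0.31 ± 0.14, edgeR adjusted p = 0.208). Gins1 had 62.3, 62.8 and 69.8 CPM in control females and 57.3 and 57.9 CPM in CKO females (-0.17, edgeR adjusted p = 0.528). Both CKO values lay below every control value in all 3, and none was called.

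The 2 CKO females differed from each other in the mitosis genes. Female CKO 1 was the lower of the pair in 20 of 22 mitosis genes and in 13 of 18 replication genes. Aurka had 93.6 and 182 CPM in the pair, Plk1 72.4 and 142 CPM, Mki67 103 and 189 CPM, Ccnb1 576 and 824 CPM, and Cdk1 95.8 and 144 CPM. In these 5 genes all control females lay between the 2 CKO embryos. Without female CKO 1 the median of the mitosis genes against controls was 0.12 and that of the replication genes -0.17, and without female CKO 2 the mitosis median was -0.36. Female CKO 1 also had the higher sum of 10 meiotic onset genes, 3155 against 2145 CPM in female CKO 2, and of red blood cell markers, 16.4 against 1.14 CPM. The part of these in the difference between the pair was not tested. Other marker sums set both CKO females apart from the control females. Endothelial markers, 4 of 6 of which passed the filter and 1 of which was called lower, summed to 134 and 163 CPM in CKO females. They summed to 241 to 303 CPM in control females, while the median log2 fold change of these 4 was above 0. Nearly all of the sum was Pecam1, with 4415 and 5239 counts in CKO females and 7746, 9555 and 8508 in control females. Cdh5, Kdr, Tie1 and Tek went the other way, with more counts in both CKO females than in every control female. The sum thus follows Pecam1 alone and cannot be read as a level of endothelial cells. Mesonephric epithelium markers, 5 of 6 of which passed and 1 of which was called higher, summed to 44.5 and 55.5 CPM against 19.1 to 26.8 CPM. In females most of this sum was Krt18, with 1076 and 1188 counts in CKO and 606, 575 and 391 in control embryos. In males it was also higher in CKO embryos, 19.5 to 21.6 CPM against 9.8 to 14 CPM, and 1 marker was called higher. The part of these marker sums in the changes of Bub1 and Mcm7 was not tested.

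In males, knockout against control gave no call among the 40 genes (edgeR), beside 1.7% of all tested genes, 1.2% higher and 0.497% lower. At an unadjusted p under 0.05 there was 1, Gins2, and limma-voom called 2 and DESeq2 1. Over all genes edgeR called 284, limma-voom 1122 and DESeq2 990. Median log2 fold changes were 0.02 over the replication genes, -0.08 over the mitosis genes and -0.02 over all genes. The spread among control males was wide, with a median coefficient of variation of 19.2% over the replication genes and 16.2% over the mitosis genes, against 6.06% and 7.69% in control females.

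Gins2 came nearest to the threshold. It had 9.4, 16.7, 14.9 and 10.4 CPM in control males and 23.8, 21.4 and 18.8 CPM in CKO males. It was the only one of the 40 genes in which the male groups did not overlap, a pattern that 8.01% of all tested genes showed upward and 6.97% downward. The log2 fold change was 0.73 ± 0.20 (edgeR adjusted p = 0.082). It passed in DESeq2 (adjusted p = 0.0115), in limma-voom (adjusted p = 0.0268) and in edgeR without male Ctrl 2 (adjusted p = 0.0293).

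The genes called in females gave smaller values in males. Mcm7 had 448, 661, 503 and 470.5 CPM in control males and 459, 457 and 385 CPM in CKO males (-0.26 ± 0.12, edgeR adjusted p = 0.302). Bub1 had 418, 513, 491 and 489 CPM in control males and 438, 483 and 374 CPM in CKO males (-0.15 ± 0.11, edgeR adjusted p = 0.565). In both genes the male groups overlapped. Mki67 had 134, 213, 234 and 234 CPM in control males and 162, 122 and 165 CPM in CKO males, and its log2 fold change was the lowest of the mitosis genes (-0.45 ± 0.22, edgeR adjusted p = 0.323).

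Pcna, Gins1 and Mcm2 of CKO males lay inside the control range, and E2f1 spread beyond it on both sides. Pcna had 373, 419 and 402 CPM, within the 299.7 to 495 CPM of control males. E2f1 had 138, 118 and 91.5 CPM around a narrow control range of 115 to 123 CPM, and Gins1 had 43.4, 45 and 42.1 CPM against 35.5 to 53.3 CPM. Mcm2 had 778, 803 and 677 CPM against 652 to 904 CPM in controls. Their log2 fold changes lay between -0.09 and -0.02, and none was called.

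Whether the effect of knockout differed between the sexes was tested as an interaction. None of the 40 genes was called, and none of all 16708 genes (0%) was. Among the 40, 2 had an unadjusted p under 0.05, and limma-voom and DESeq2 also called none of them, while DESeq2 called 61 and limma-voom 0 of all genes. Bub1 had the smallest adjusted p, with an effect in females minus that in males of -0.71 ± 0.18 on the log2 scale (edgeR adjusted p = 0.385), and Bub1b gave -0.35 ± 0.16 (edgeR adjusted p = 0.594). The fall of Bub1 and Mcm7 in CKO females is thus not shown to differ from the values in males. Median differences were -0.23 over the replication genes and -0.07 over the mitosis genes.

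Averaged by phase, the libraries showed the sex difference and the spread within groups together. The mean log2 CPM over the replication genes minus that over the mitosis genes was 0.01 ± 0.04 (SD, n = 3) in control females and -0.02 ± 0.24 (n = 2) in CKO females. It was -0.42 ± 0.18 (n = 4) in control males and -0.30 ± 0.14 (n = 3) in CKO males. Female libraries ranged from -0.19 to 0.15 and male libraries from -0.60 to -0.18, so the sexes met at female CKO 2 and male Ctrl 2. Mean mitosis levels were 7.68 to 7.80 in control females and 7.76 to 8.21 in control males, overlapping through male Ctrl 1, while mean replication levels of control males, 7.32 to 7.99, spanned those of all other groups.

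**Figure D3:**
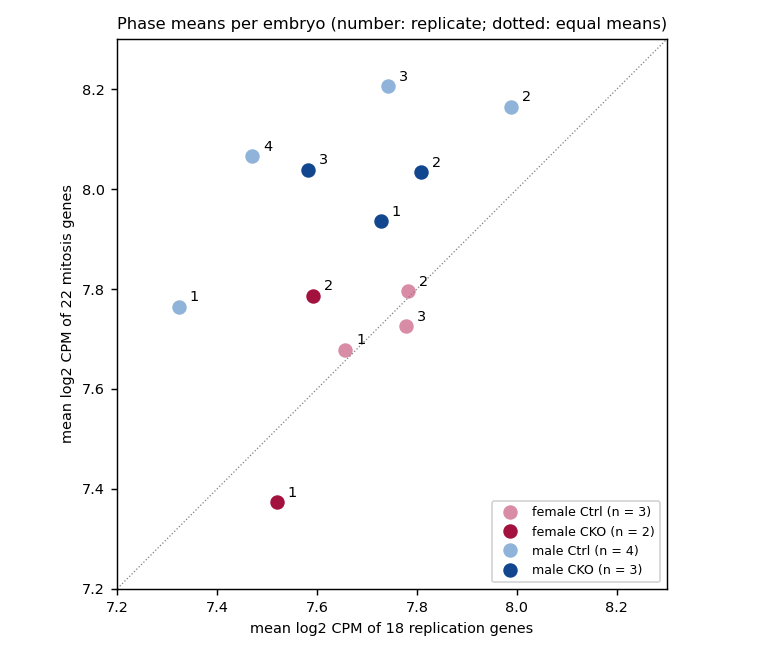
Mean log2 CPM of the 18 replication genes (horizontal axis) and of the 22 mitosis genes (vertical axis) in each embryo (points, numbered by replicate, coloured by group); the dotted line marks equal means. Male libraries lie above the line, by 0.18 to 0.60, and female libraries between 0.15 below and 0.19 above it, so that female CKO 2 lies further above it than male Ctrl 2.

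Control males differed among themselves across both phases. Male Ctrl 2 was the highest of the 4 in 17 of 18 replication genes, and male Ctrl 1 was the lowest in 12 of 18 replication and 19 of 22 mitosis genes. Ccne1, the cyclin that drives entry into S phase, had 71.5, 163, 107 and 74.6 CPM, and Cdc6, which helps to load the helicase, 67, 148, 101 and 71 CPM. Male Ctrl 1 and male Ctrl 4 were low and male Ctrl 2 high in both. Male Ctrl 1 also had the highest sum of Sertoli cell markers, 50.2 CPM against 18.1 to 21.6 CPM in the other control males, and the part of this in the pattern was not tested. With male Ctrl 1, male CKO 1 and female CKO 1 left out together, a choice made after seeing the data, calls between the control sexes were 2 higher and 15 lower. Over all genes 6197 were then called between the control sexes, against 6604 with all libraries. Between the CKO sexes, with 1 CKO female in the fit, calls were fewer among the 40 genes and over all genes. In that fit Mki67 was lower in CKO males (-0.66, edgeR adjusted p = 0.0491), and 1 of the 40 genes was called between CKO and control females.

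**Figure D4:**
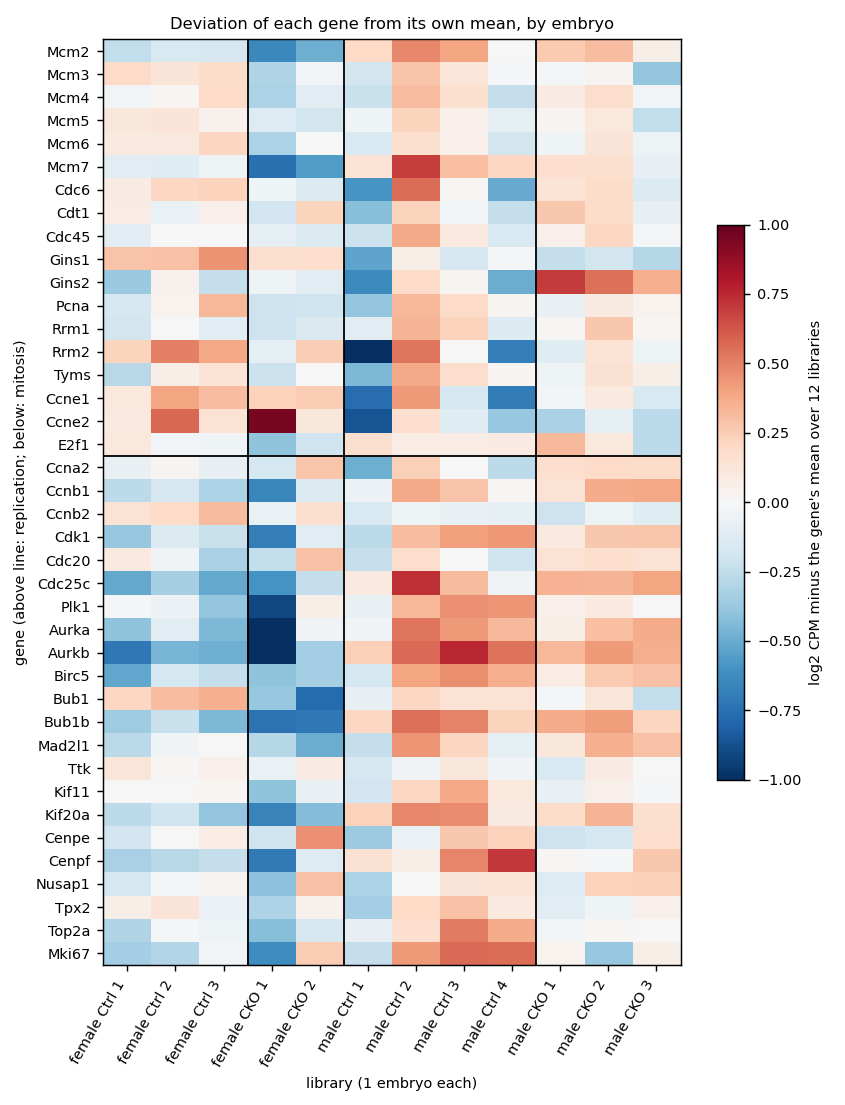
Deviation of log2 CPM from the gene's own mean over the 12 libraries (colour, limited to -1 and 1) for each of the 40 genes (rows, replication above the line and mitosis below) in each embryo (columns, by group). In female CKO 1 none of the 22 mitosis genes is above its mean, and the lower rows are mostly blue in females and red in males other than male Ctrl 1.

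Further genes of both phases were read from lists that hold none of the 40. Of 51 other replication genes, 9 (17.6%) were higher and 6 (11.8%) lower in control females than in control males. Both shares lay below those of all tested genes, 20.1% and 19.4%. The median log2 fold change of the 51 was 0.05. The higher ones included Dscc1, a subunit of the clamp loader that acts in sister chromatid cohesion (1.06 ± 0.15, edgeR adjusted p = 0.000105), and the primase subunit genes Prim1 (0.47) and Prim2 (0.49), and the lower ones Chtf18, which encodes another subunit of that loader (-1.18 ± 0.12, edgeR adjusted p = 9.89e-06), Gins4 (-0.47) and Pola2 (-0.62). Of 82 other mitosis genes, 21 (25.6%) were lower and 8 (9.76%) higher, with a median of -0.16. The share called higher lay below the 20.1% of all tested genes. Lower ones included the kinetochore genes Nuf2 (-0.75 ± 0.09) and Cenpc1 (-0.67) and the kinesin gene Kif18b (-1.07), and higher ones Pkmyt1, an inhibitory kinase of CDK1 (0.77), Kif23 (0.67) and Cdc25b (0.92). The shares called lower were 25.6% of these 82 and 50% of the 22 mitosis genes, beside 19.4% of all genes.

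Between CKO and control females the other replication genes gave 3 lower, which were Pola1, the catalytic subunit of DNA polymerase alpha (-0.85), Dna2, a nuclease of Okazaki fragments (-0.76), and Timeless, a fork protection gene (-0.48), and 1 higher, Gins3 (0.65). These are 5.88% and 1.96% of 51 genes, beside 4.16% and 3.01% of all tested genes. Of the other mitosis genes 7 of 82 (8.54%) were lower and none higher, with Cenpt of the inner kinetochore (-1.07 ± 0.14, edgeR adjusted p = 0.00214), Incenp, the scaffold of the passenger complex (-0.85), and Espl1, the gene of separase (-0.71), leading. Among 19 genes of E2F factors, pocket proteins and MuvB partners 3 (15.8%) were lower, E2f3 (-0.69), E2f6 (-0.47) and Mybl2, which encodes B-MYB (-0.56), and none higher. Of 10 meiotic onset genes 2 (20%) were higher, Sycp2 (1.58) and Sycp3 (1.10), components of the synaptonemal complex. In males none of these 4 lists had a member called between CKO and control embryos.

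Between the sexes of control embryos 3 of the same regulators were higher in females, Tfdp2, E2f2 and E2f3, and 7 were lower. These are 15.8% and 36.8% of the list, beside 20.1% and 19.4% of all tested genes. The lower ones included E2f4, the main repressive E2F of quiescent cells (-0.79 ± 0.10, edgeR adjusted p = 6.81e-05), the MuvB subunit gene Lin37 (-0.77) and E2f6 (-0.48). Of the meiotic onset genes 8 of 10 (80%) were higher in control females and none was lower. Stra8, the gatekeeper of meiotic entry, had 261 ± 44.1 CPM (SD, n = 3) in control females and 2.16 ± 1.04 CPM (n = 4) in control males. Between CKO sexes, 29 of the 82 other mitosis genes were lower (35.4%) and 6 higher (7.32%). Of the 51 other replication genes 9 were lower (17.6%) and 7 higher (13.7%). Among all tested genes 19% were lower and 19.4% higher, so both replication shares lay below those of all genes.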

How the data were processed

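The values are raw read counts per gene in 12 libraries, in 1 table the authors deposited. Per the labels' protocols the cDNA was amplified with SMART-seq V4, which keeps no strand, so overlapping genes on opposite strands cannot be told apart. Per the submitters' processing notes the tools were featureCounts, TopHat2 2.0.11, Trimmomatic 0.33 and CASAVA 1.8.4, and the builds mm9 and NCBIM37; how reads with several matches were counted is not given in the sources used here. Symbols and exon lengths came from GENCODE M21, and 32919 of the 37991 identifiers matched a symbol, covering 99.5% of the counts.

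Counts were used as deposited. Genes were kept with edgeR's filterByExpr (minimum count 10, minimum total 15), scaled by TMM (factors 0.926 to 1.11) and fitted in 1 robust quasi-likelihood model of the 4 groups (edgeR 4.0.16, limma 3.58.1, R 4.3.3), with 8 residual degrees of freedom and Benjamini-Hochberg adjustment over all 16708 genes. Calls were made at an adjusted p under 0.05, and the method was tested on simulated data. Standard errors came from the F statistic. Every pair of libraries within a group differed beyond counting error (chi-square per gene 16.8 to 66.2). Each library was 1 embryo, and the litters are not given.

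The 40 genes and the other lists were chosen with earlier results of these data known. Values in every library were given for up to 3 called genes of each phase with the smallest adjusted p in the CKO comparisons and the control sex comparison. They were also given for Mki67, Pcna, Ccnb1, Cdk1, E2f1, Mcm7 and Bub1, of which Mcm7 and Bub1 were known from those earlier results to be called. From each other list up to 3 called genes per direction were named. Gins2, Ccne1, Cdc6, Rrm2, Aurka and Plk1 were given library values after these had been seen. Promoters came from RefSeq on GRCm38.p6, a different build from that of the counts, and no coordinates were converted. Alternatives were DESeq2's size factors, library size only, other filters, only the groups compared, limma-voom with sample weights, DESeq2 1.42.0, removal of GC or length trends, the replicate number as a block, and leaving out libraries.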

Additional observations from a re-analysis of the deposited data

Results flagged for a closer look

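E2f1 in control males had 122.81 CPM in male Ctrl 1, apart from 115.8, 115.3 and 116.1 CPM in the other 3 libraries. The gap to the nearest library was 0.90 of the range of the group, above Dixon's critical value for 4 samples. It was the 1 such case among 42 sets of 4 values that were checked, the 40 genes and the mean of each phase in control males, and chance gives about 1 in 20. The gap is small in size, and E2f1 differed neither between the control sexes (edgeR adjusted p = 0.612) nor between CKO and control males (edgeR adjusted p = 0.952) by an amount that passed the test.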

How the results depend on the processing

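No result changed its direction while called. With library size only, 1 gene was called between CKO and control females (2 in the reported fit), with a replication median of -0.14, and the medians between CKO sexes were 0.020 (replication) and -0.26 (mitosis). The filter of 5 CPM in 2 libraries called 1 gene between CKO and control females. Between CKO and control males limma-voom called 2 genes and DESeq2 1. With 3 libraries left out together (chosen after seeing the data), CKO and control females gave 1 call and medians of -0.17 (replication) and 0.12 (mitosis), CKO and control males 1 call, CKO sexes 9 calls and a mitosis median of -0.22, and the interaction a mitosis median of 0.20. Leaving out 1 library at a time, calls ranged from 0 to 1 between CKO and control females, 0 to 1 between CKO and control males, 10 to 17 between control sexes, 7 to 12 between CKO sexes and 0 to 0 in the interaction. Mitosis medians then ranged from -0.36 to 0.12, from -0.17 to -0.01, from -0.49 to -0.32, from -0.54 to -0.19 and from -0.30 to 0.14 in that order, and replication medians from -0.25 to -0.15, from -0.05 to 0.11, from -0.01 to 0.16, from -0.24 to -0.11 and from -0.34 to -0.13. A group reduced to 1 library is assumed to vary like the others. Calls over all genes changed too. Leaving out 1 control female gave 425 to 691 of them between CKO and control females, against 1198 with all libraries. Calls over all genes fell further without 1 CKO female, in fits that leave 1 library in that group. Leaving out 1 male gave 36 to 502 between CKO and control males, against 284. Between control sexes, leaving out 1 library gave 5138 to 6774, against 6604. Between CKO sexes, leaving out 1 male gave 5101 to 5602, against 6411.

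With the replicate number as a block, CKO and control females gave 3 calls (Mcm2 added, edgeR adjusted p = 0.0465), CKO and control males 0, control sexes 14, CKO sexes 13 and the interaction 0. Over all genes the block gave 1054, 105, 6142, 6090 and 0 calls in that order. Without the block these were 1198, 284, 6604, 6411 and 0. The replicate numbers need a word on their source. They are the numbers of the sample titles. The column headers number the females differently, so that replicate 1 of CKO and control females has different numbers there. Replicate 2 of CKO and of control females shares a header number, which differs from the title number. Males have the same numbers in titles and headers. Deviations from group means were correlated between CKO and control embryos with the same title number. In females this gave 0.108 (replicate 1) and -0.022 (replicate 2), and in males -0.024, 0.029 and 0.006. With 2 CKO females the deviations of the pair mirror each other, so the female values are not independent and cannot decide on pairing. No label says what a number marks, and the libraries were not treated as paired. The precision of the female comparisons rests on 2 CKO embryos, not on depth.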
